A study of Homo sapiens with 8 samples.

Results

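The HOXB cluster on human chromosome 17 holds 10 homeobox genes, HOXB1 to HOXB9 and HOXB13, and the expression of each was examined after HOXB7 silencing in pancreatic ductal adenocarcinoma (PDAC) cell lines. Every gene probe of the array that carries one of these names was taken, which gave 11 probes for the 10 genes out of 34127 gene probes for 27254 genes. HOXB2 had 2 probes and each of the other genes had 1, and every probe lay on 1 spot of the array. RNA came from 4 groups of 2 arrays each. For MIA PaCa-2 (a PDAC line) these were cells collected 48 h after transfection of 10 nM HOXB7-specific siRNA, and parental cells. For Capan-1 (a PDAC line from a liver metastasis) they were likewise cells 48 h after 10 nM HOXB7-specific siRNA, and parental cells. Parental cells were the control in both lines, these samples include no scrambled siRNA array, and which duplex was transfected is not given in the labels, so that an effect of transfection and an effect of HOXB7 loss cannot be told apart. Each line was on a slide of its own, and on each slide the siRNA samples were at the first positions, so slide and line, and position and treatment, cannot be told apart either.

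HOX genes encode transcription factors that bind DNA through a homeodomain and set the identity of segments along the head-to-tail axis of the embryo. In the cluster they lie side by side in 1 direction of transcription, and as a rule the genes at the HOXB1 end are expressed earlier and nearer to the head than those at the HOXB9 and HOXB13 end. Many HOX genes are expressed in adult epithelia and in tumours, and HOXB7 has been studied in several cancers as a gene with raised expression. Because neighbouring HOX genes have related homeobox sequences, the comparison asked whether the HOXB7 siRNA lowered HOXB7 alone within its cluster or its neighbours too.

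All 11 probes lie on the minus strand of chromosome 17 in the build named in the files (hg18), from the HOXB1 probe at chr17:43962915-43962974 to the HOXB13 probe at chr17:44157143-44157202. The probe of HOXB7 lies at chr17:44039988-44040047, and the HOXB8 probe begins 4.85 kb away at chr17:44044834-44044893. The HOXB5 probe is at chr17:44023805-44023864. For HOXB2, one probe at chr17:43975896-43975955 covers a stretch of the homeobox and is called here the homeobox probe, and the other at chr17:43975126-43975185 is nearer to the end of the transcript and is called the downstream probe. The sequences of these probes are shown because the results below turn on what they detect. For 4 of them the first 30 bases are given, and the homeobox probe is given whole, with capitals marking TGGTTTCAGAACCGG, the letters that encode a conserved stretch of the homeodomain's recognition helix.
HOXB7: gagtttaaaaacattttttaaggagggaga
HOXB8: gctgtgggcaattgttacaagtgttcttag
HOXB5: aaatgtcttgtgtatttctctgtgaatcca
HOXB2 downstream probe: attaaactctagggggactttcttaaaaat
HOXB2 homeobox probe: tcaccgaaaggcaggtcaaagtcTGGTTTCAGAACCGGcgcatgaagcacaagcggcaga
The capital letters, searched as written in the probe sequences, were found in this probe and in no other of the 34127 gene probes (0.00293%). As they were taken from this probe and searched as an exact match, the search does not show which transcripts it can detect. The HOXB7 probe has a GC content of 30% against a median of 43.3% over all gene probes, and 2.08% of gene probes have a GC content as low or lower.

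A log2 change is the log2 fold change of siRNA-treated against parental cells. A level is given below as the log2 processed intensity minus the 75th percentile of the same array, so that a probe above 0 is brighter than the upper quartile of its array. Levels compare the same probe between arrays and not different genes. A probe counted as detected in a group when the scanner software called it well above background on both arrays. By this criterion 9 of 10 HOXB genes were detected in parental MIA PaCa-2 cells and 9 in parental Capan-1 cells, the exception in both being HOXB1. After siRNA 8 genes were detected in MIA PaCa-2, where HOXB7 was no longer well above background, and 8 in Capan-1, where HOXB8 was not. HOXB1, a gene of hindbrain patterning, was well above background on 1 of 8 arrays, a parental MIA PaCa-2 array, and was not tested. Of the other genes, 7 with 8 probes were well above background on all 8 arrays, while HOXB7 for MIA PaCa-2 and HOXB8 for Capan-1 entered the tests through their parental arrays only.

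**Figure D1:**
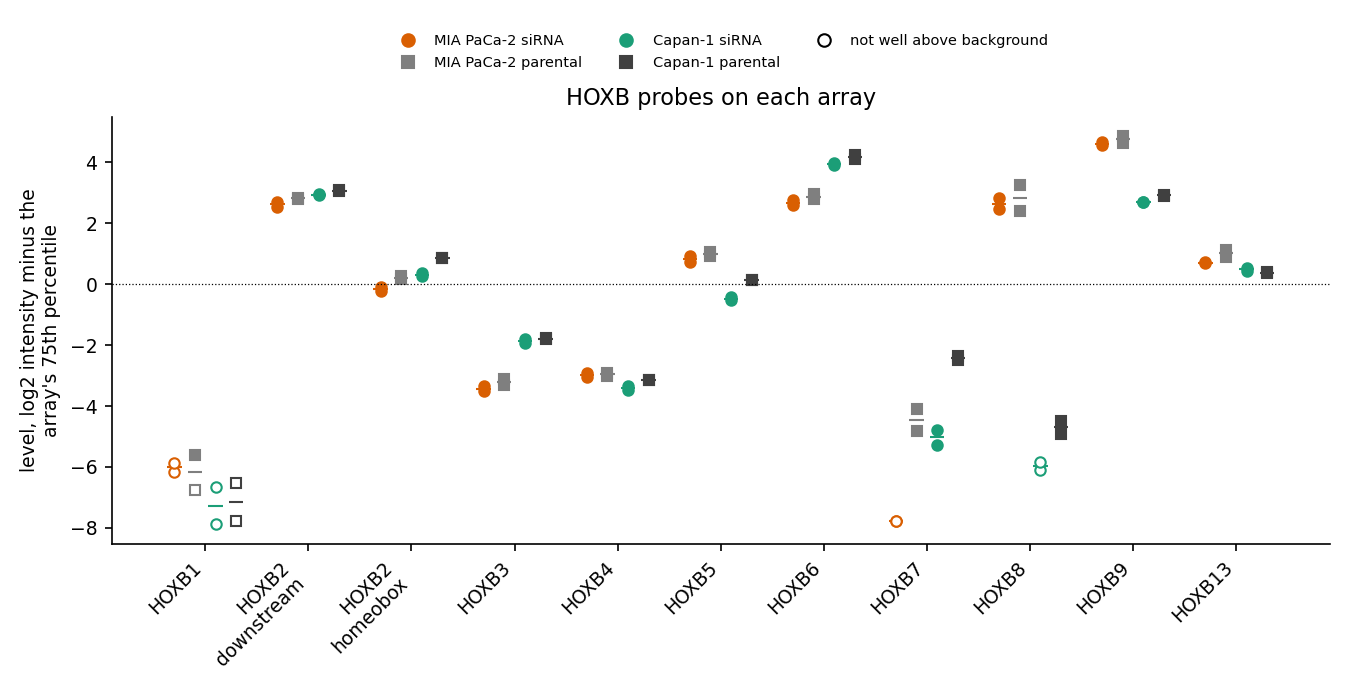
Level of each HOXB probe on each of the 8 arrays (log2 processed intensity minus the array's 75th percentile), in cluster order. Circles are siRNA arrays, squares parental arrays, short lines group means of 2 arrays, and open symbols arrays where the probe was not well above background; HOXB7 lies lower on all 4 siRNA arrays than on the parental arrays of the same line, and HOXB8 separates the 2 lines.

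HOXB7 itself, the targeted gene, was lower on every siRNA array. Levels of -7.77 and -7.78 were measured after siRNA in MIA PaCa-2, against -4.82 and -4.10 in its parental cells. Capan-1 gave -5.26 and -4.80 after siRNA, against -2.48 and -2.34. In neither line did the groups overlap, and both siRNA values of MIA PaCa-2 were at the background of the array. The processed intensities behind these levels were small, with 1.14 and 1.17 units against 11.6 and 15.4 in MIA PaCa-2 and 6.56 and 9.5 against 47.4 and 61.5 in Capan-1, while the median spot of an array had 39.5 to 54.0 units.

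In MIA PaCa-2, HOXB7 fell with a fitted log2 change of -3.32 ± 0.26 (standard error, SE, n = 2 arrays per group, limma adjusted p = 0.0174). As the siRNA arrays give only an upper limit, HOXB7 was at least 2.82-fold lower after siRNA. The fitted value and its p rest on siRNA arrays at background, and the probe was tested through its parental arrays alone. Of the 23711 probes tested in this line, 1.89% passed in either direction and 0.932% passed as lower. In Capan-1 the log2 change was -2.62 ± 0.26 (n = 2 per group), which is 6.15-fold lower with a 95% interval of 3.93 to 9.61, or 16.3% of the parental level. This was the fourth lowest of 23367 probes, and it did not pass (adjusted p = 0.126, limma); in Capan-1 only 1 probe passed (0.00428%). Averaged over both lines HOXB7 passed as lower (n = 4 arrays per group, limma adjusted p = 0.0211), with a fitted log2 value of -2.97 to which the MIA PaCa-2 siRNA arrays at background contribute. That call was lost without a filter on dim probes (adjusted p = 0.0607, limma) and without either Capan-1 parental array (adjusted p = 0.0544 and 0.0739, limma). As MIA PaCa-2 gives only a limit, of a smaller fold than the Capan-1 value, the difference between the lines has no fixed sign, and its fit did not pass (adjusted p = 0.541, limma).

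The size of the HOXB7 change depends on the background correction. With the normexp method and an offset of 50 units, which exceeds the processed HOXB7 intensity on 7 of 8 arrays, the log2 change was -0.10 for MIA PaCa-2 (adjusted p = 0.589, limma) and -0.66 for Capan-1 (adjusted p = 0.0453, limma). The MIA PaCa-2 call was also lost when this line was fitted alone (adjusted p = 0.122, limma) and when any 1 of the 4 Capan-1 arrays, which contribute to the spread, was left out (adjusted p = 0.0588 to 0.0827, limma).

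**Figure D2:**
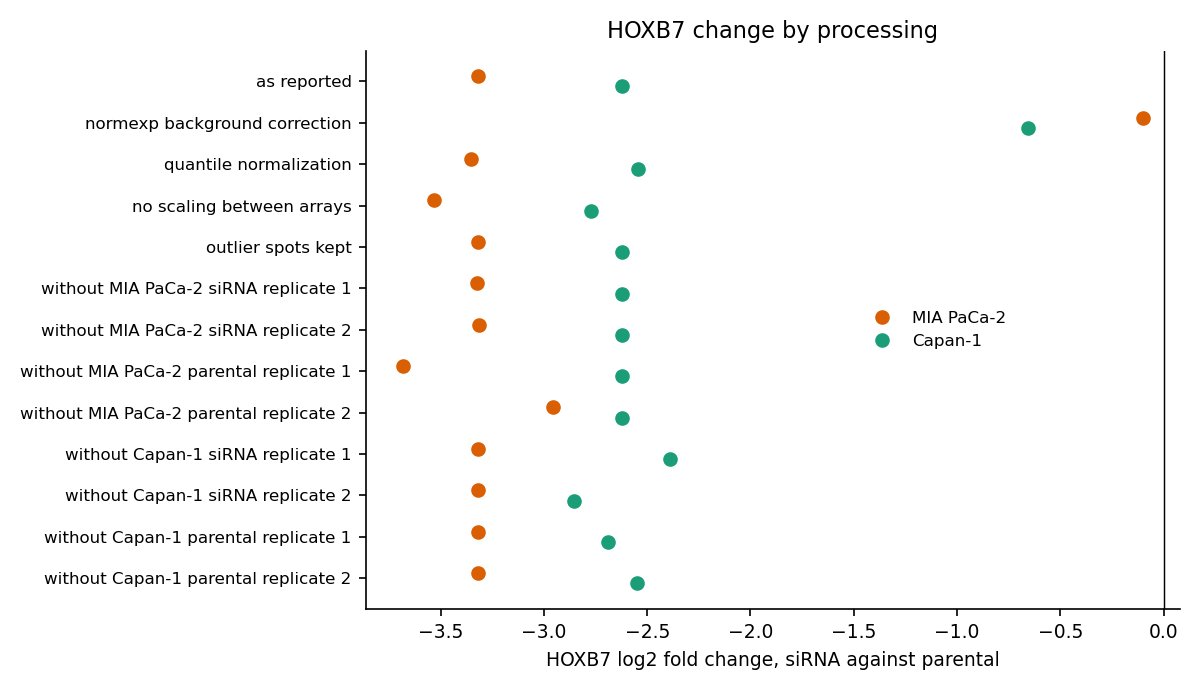
HOXB7 log2 change, siRNA against parental, in MIA PaCa-2 and Capan-1 under 5 ways of computing the level and with each of the 8 arrays left out in turn. All points lie between -3.68 and -2.39 except those of the normexp background correction, at -0.10 and -0.66.

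HOXB7 was then set against each of the other 8 tested genes, as the change of HOXB7 minus the change of that gene. In Capan-1, where HOXB7 was measured in both groups, the difference ran from -2.72 to -2.0 over the 7 genes other than HOXB8. For HOXB8 it had no fixed sign in Capan-1, because HOXB8 itself was not above background there after siRNA. In MIA PaCa-2, with HOXB7 after siRNA set to the lowest detected signal of each array, the difference was -1.20 or lower for each of these 7 genes and -1.30 or lower for HOXB8. For the 7 genes, the siRNA arrays lay below the parental arrays in this difference in both lines, also at that limit. An exact permutation test of the array labels within lines could not go below p = 0.0556 (two-sided, 36 arrangements), the value it gave for each pair, so it adds nothing to the separation of the arrays. With normexp, 2 of 8 pairs were negative in both lines.

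**Figure D3:**
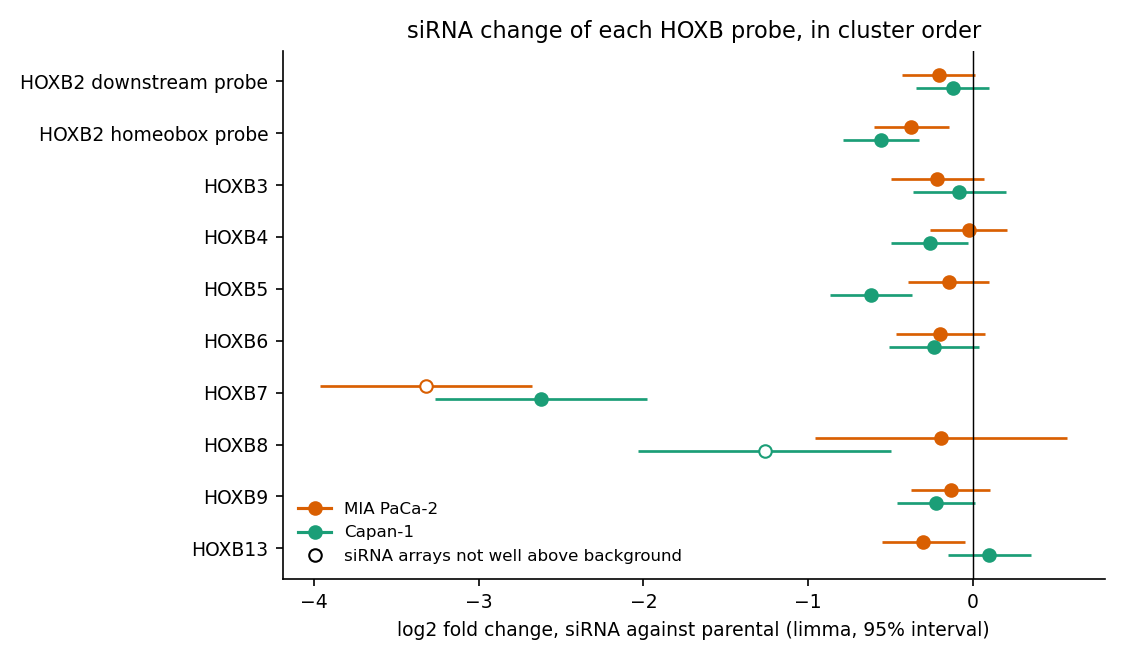
Log2 change of the 10 tested HOXB probes, siRNA against parental, in cluster order from the HOXB2 end, with 95% intervals from limma (n = 2 arrays per group). Open symbols mark changes whose siRNA arrays were not well above background; HOXB7 lies at -3.32 for MIA PaCa-2 (a fitted value against arrays at background) and -2.62 for Capan-1, and the other probes lie between -1.26 and 0.10.

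Among the anterior genes of the cluster, HOXB2 was the one with a call. HOXB2 acts in hindbrain patterning, and its homeobox probe had levels of -0.23 and -0.08 after siRNA and 0.17 and 0.26 in parental MIA PaCa-2 cells. In Capan-1 the same probe had 0.26 and 0.36 after siRNA and 0.86 and 0.88 in parental cells. In each line the siRNA values lay below the parental ones without overlap. The log2 change of this probe was -0.37 ± 0.09 for MIA PaCa-2 (SE, n = 2, limma adjusted p = 0.105) and -0.56 ± 0.09 for Capan-1 (SE, n = 2, limma adjusted p = 0.180). Averaged over both lines the homeobox probe fell by 0.46 on the log2 scale (SE 0.07, n = 4, limma adjusted p = 0.0417), a 1.38-fold change. That call was lost when any array but 1 of the MIA PaCa-2 siRNA arrays was left out, with adjusted p between 0.0437 and 0.140 over the 8 omissions. It was also lost without scaling and without a filter on dim probes (adjusted p = 0.101 in both, limma).

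The HOXB2 downstream probe gave smaller values. Its level was 2.71 and 2.53 after siRNA against 2.81 and 2.85 in parental MIA PaCa-2 cells, and 2.96 and 2.93 against 3.08 and 3.05 in Capan-1. Groups did not overlap in either line, but the log2 changes of -0.21 for MIA PaCa-2 (adjusted p = 0.269, limma) and -0.12 for Capan-1 (adjusted p = 0.614, limma) did not pass. The average over both lines was -0.16 with a 95% interval of -0.32 to -0.01 (adjusted p = 0.213, limma), against -0.63 to -0.30 for the homeobox probe, so the 2 probes of HOXB2 gave different calls.

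HOXB3 and HOXB4, which also act in the hindbrain and, for HOXB4, in blood stem cells, were dim but detected in all 4 groups. HOXB3 had levels of -3.51 and -3.34 after siRNA against -3.10 and -3.32 in parental MIA PaCa-2 cells, and -1.81 and -1.92 against -1.75 and -1.81 in Capan-1. Its groups lay apart in MIA PaCa-2 by a narrow margin and overlapped in Capan-1, with log2 changes of -0.21 (adjusted p = 0.355, limma) and -0.08 (adjusted p = 0.809, limma). HOXB4 had -3.05 and -2.93 after siRNA against -3.02 and -2.91 in parental MIA PaCa-2 cells, which overlap, and its log2 change was -0.02 with a 95% interval of -0.26 to 0.21. In Capan-1 HOXB4 had -3.33 and -3.47 against -3.13 and -3.15, groups that do not overlap, and a log2 change of -0.26 (adjusted p = 0.368, limma). The direction for HOXB4 turned with normexp, to 0.12 for MIA PaCa-2 and 0.01 for Capan-1.

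Of the central genes, HOXB5 and HOXB6 flank HOXB7 on the HOXB1 side. HOXB5, known from lung and gut development, had levels of 0.74 and 0.94 after siRNA and 1.04 and 0.93 in parental MIA PaCa-2 cells, and the groups overlapped. In Capan-1 its levels were -0.42 and -0.52 after siRNA and 0.14 and 0.16 in parental cells, without overlap. The log2 change was -0.15 ± 0.10 for MIA PaCa-2 (SE, n = 2, limma adjusted p = 0.466) and -0.62 ± 0.10 for Capan-1 (SE, n = 2, limma adjusted p = 0.180). The average of both lines, -0.38, did not pass (adjusted p = 0.0602, limma). The change in MIA PaCa-2 minus that in Capan-1 was 0.47 for HOXB5, with a 95% interval of 0.12 to 0.82, and did not pass over all probes (adjusted p = 0.332, limma).

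HOXB6, the nearest neighbour of HOXB7 on that side with its probe at -11.8 kb, was bright in both lines. Its levels were 2.77 and 2.60 after siRNA against 2.97 and 2.80 in parental MIA PaCa-2 cells, and 4.0 and 3.90 against 4.25 and 4.12 in Capan-1. Groups did not overlap in either line, and the log2 changes were -0.20 (adjusted p = 0.374, limma) and -0.23 (adjusted p = 0.447, limma).

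HOXB8, on the other side of HOXB7 and known for a role in myeloid progenitors, had levels of 2.82 and 2.47 after siRNA and 3.27 and 2.41 in parental MIA PaCa-2 cells. These overlap, and the log2 change was -0.19 with a wide 95% interval of -0.96 to 0.57. Without the brighter parental array the sign turned, to 0.24. In Capan-1 HOXB8 was near background, with processed intensities of 3.71 and 4.66 units after siRNA and 11.9 and 10.4 in parental cells. The siRNA arrays there were not well above background, so the group means put HOXB8 at least 2.30-fold lower. Its fitted log2 change of -1.26 ± 0.31 did not pass (SE, n = 2, limma adjusted p = 0.277), with a 95% interval of -2.03 to -0.50. Over the alternative ways of processing this Capan-1 value ran from -1.48 to -0.03. The difference of the HOXB8 change between the lines did not pass (adjusted p = 0.452, limma). Its fitted value, 1.07 for MIA PaCa-2 minus Capan-1, rests on the Capan-1 siRNA arrays and was -0.21 with normexp.

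The posterior genes are HOXB9 and HOXB13, and neither passed in either line. HOXB9, which acts in rib and mammary gland development, had 4.67 and 4.57 after siRNA against 4.86 and 4.65 in parental MIA PaCa-2 cells, which overlap, and 2.69 and 2.69 against 2.93 and 2.91 in Capan-1, which do not. Its log2 changes were -0.13 (95% interval -0.37 to 0.10) and -0.22 (95% interval -0.46 to 0.01). HOXB13, a gene of the tail end of the body axis and of the prostate, had 0.68 and 0.74 after siRNA against 0.90 and 1.13 in parental MIA PaCa-2 cells. In Capan-1 HOXB13 had 0.45 and 0.52 after siRNA against 0.42 and 0.36, so that the siRNA arrays were the lower ones in MIA PaCa-2 and the higher ones in Capan-1. The log2 changes were -0.30 (adjusted p = 0.184, limma) and 0.10 (adjusted p = 0.716, limma).

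Counted over the cluster, 1 of the 10 tested probes passed as lower in MIA PaCa-2 (HOXB7), and none did in Capan-1. At an unadjusted limma p under 0.05, 3 of 10 were lower in MIA PaCa-2, against 10.0% of all probes, and 5 of 10 in Capan-1, against 6.82%, with HOXB7 itself among them in both lines and HOXB8 in Capan-1. The values were small but leaned to one side. The log2 change was below 0 for 10 of 10 probes in MIA PaCa-2, against 46.9% of all probes tested, and for 9 of 10 in Capan-1, against 51.2%. Since 1 probe in each line entered through its parental arrays, the 8 probes of 7 genes that were well above background on all 8 arrays give the plainer description. Of these, 8 of 8 were below 0 for MIA PaCa-2 (48.0% of the 20359 such probes) and 7 of 8 for Capan-1 (50.7%), and 2 of 8 (10.7%) and 3 of 8 (6.75%) were lower at an unadjusted p under 0.05. Their median was -0.20 in MIA PaCa-2 against 0.01 over all such probes and -0.23 in Capan-1 against 0.00. The siRNA arrays were both below the parental arrays for 5 of the 8 in MIA PaCa-2 (24.4% of such probes), for 6 of 8 in Capan-1 (27.5%) and for 3 of 8 in both lines (11.3%), namely both HOXB2 probes and HOXB6. These genes share a chromosome domain and were not independent observations.

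Averaged over both lines, 2 of 10 probes passed as lower, HOXB7 and the HOXB2 homeobox probe, against 1.14% of all probes tested. None of the 10 probes passed in the test of the difference between the lines (0.00391% of all probes), where 2 had an unadjusted p under 0.05, HOXB5 and HOXB13, against 11.1% of all probes.

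**Figure D4:**
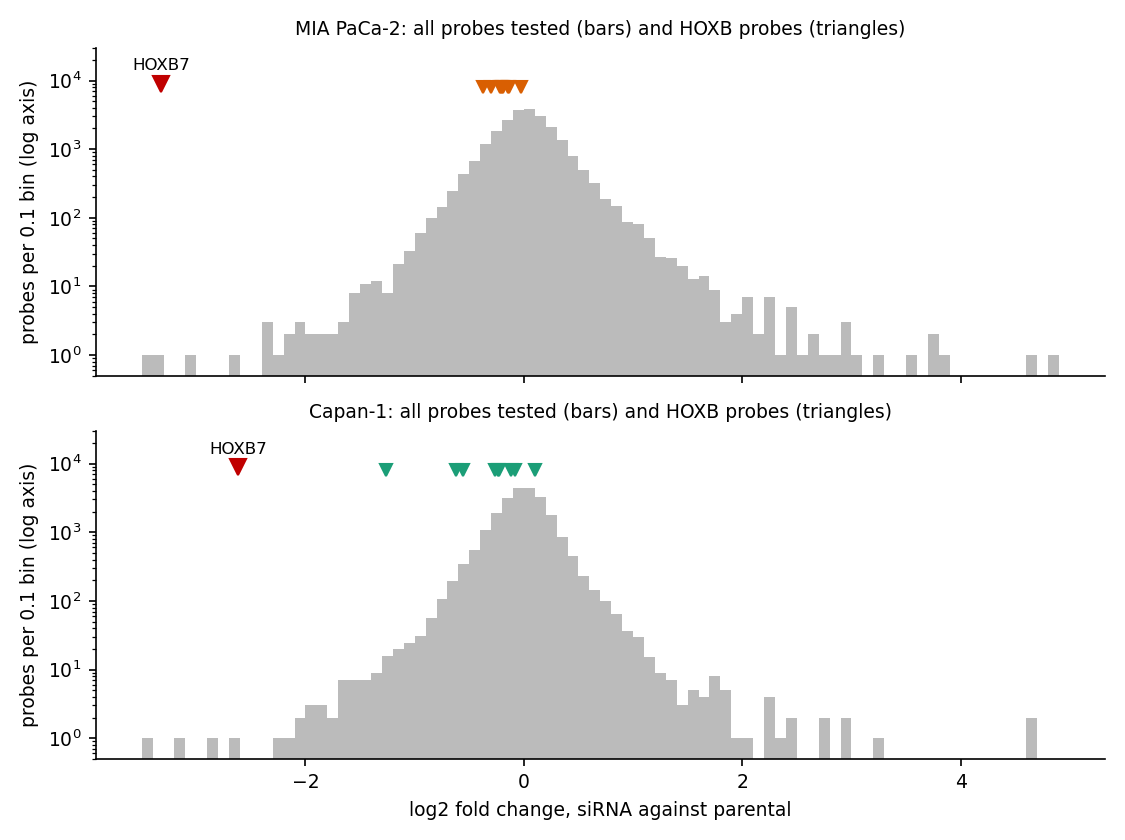
Number of probes (log axis) per 0.1 of log2 change, siRNA against parental, for all probes tested in MIA PaCa-2 (23711) and Capan-1 (23367), with triangles at the values of the 10 HOXB probes. HOXB7 in MIA PaCa-2 and HOXB8 in Capan-1 are fitted values against siRNA arrays at background. HOXB7 in Capan-1, at -2.62, lies far to the left of the bulk of the probes. The HOXB probes other than these lie within the bulk or at its left flank.

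The genes around the cluster were examined in the same way, from a list of 15 flanking genes of which 14 had a probe and 12 were tested. None passed in either line or in the average. The smallest adjusted p in MIA PaCa-2 was that of NFE2L1, a stress-response transcription factor gene, with a log2 change of -0.49 (adjusted p = 0.0593, limma). In Capan-1 it was that of COPZ2, a vesicle coat subunit gene, with -0.23 (adjusted p = 0.347, limma). PRAC2, between HOXB9 and HOXB13, was well above background on all 8 arrays, with mean levels of 0.12 and 0.02 after siRNA and in parental MIA PaCa-2 cells and of 0.22 and 0.12 in Capan-1. Its log2 change was 0.09 in both lines. The 15 flanking probes had a median log2 change of -0.08 for MIA PaCa-2 and -0.02 for Capan-1. None of the 5 listed antisense transcripts of the cluster had a probe with its name, and the files name 2 probes on the plus strand between HOXB6 and HOXB7. One of them, ENST00000376699, was not well above background on any array. The other, A_33_P3424864 at chr17:44034194-44034253, was well above background on all 4 MIA PaCa-2 arrays, with mean levels of -4.77 after siRNA and -4.90 in parental cells and a log2 change of 0.13 (adjusted p = 0.870, limma), and on no Capan-1 array.

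**Figure D5:**
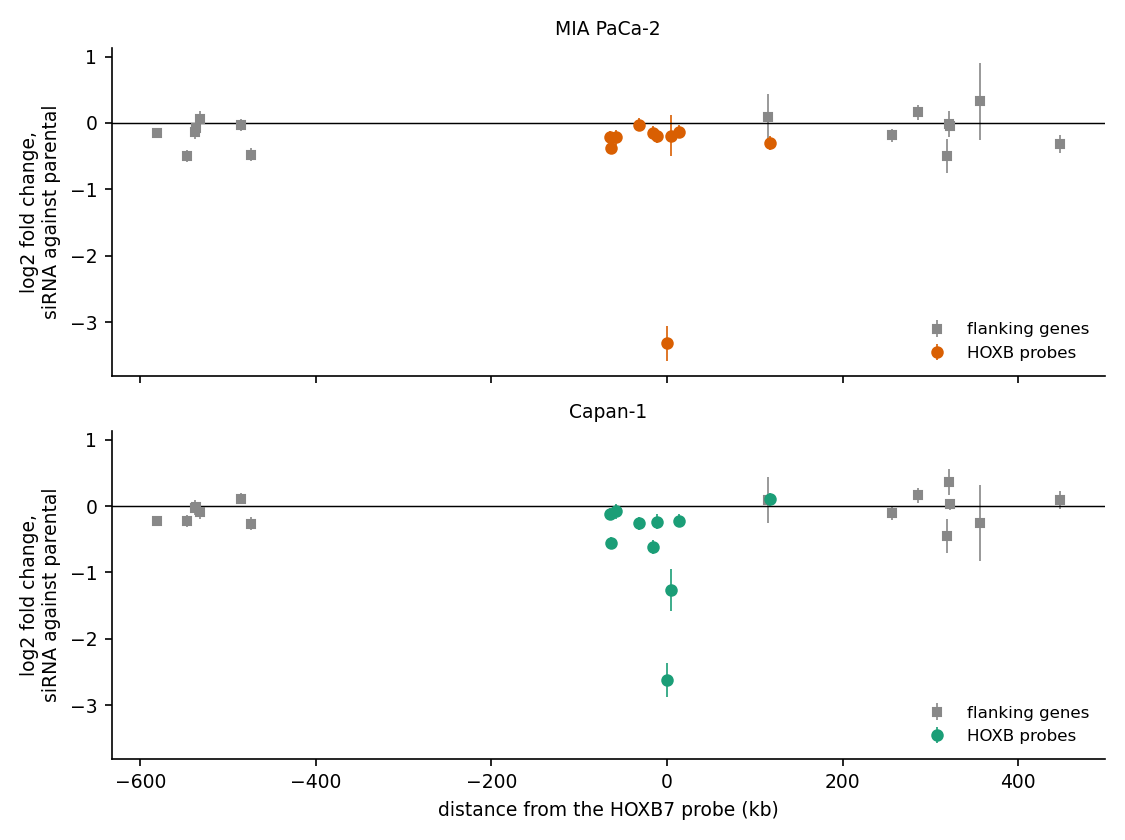
Log2 change, siRNA against parental, with its SE, of HOXB probes (circles) and probes of flanking genes (squares) against the distance in kb from the HOXB7 probe, in MIA PaCa-2 (top) and Capan-1 (bottom). Apart from HOXB7 at 0 kb and HOXB8 at 4.85 kb in Capan-1, the values lie between -0.62 and 0.36.

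HOX proteins bind DNA together with cofactors of the TALE homeodomain class, the PBX, MEIS, PKNOX and related proteins. Of 11 listed cofactor genes, 9 were tested in MIA PaCa-2, 10 were in Capan-1, and none passed. The smallest adjusted p in MIA PaCa-2 was that of PBX3, with a log2 change of 0.48 (adjusted p = 0.0907, limma), and PBX3 also had the smallest in Capan-1, with -0.27 (adjusted p = 0.318, limma) from its other probe. None of 10 tested regulators of HOX genes passed in either line, the smallest adjusted p being that of EZH2, a Polycomb methyltransferase gene, in MIA PaCa-2 (log2 change -0.32, limma adjusted p = 0.142). HOXA7, the paralog of HOXB7 in the HOXA cluster, had a log2 change of -0.02 for MIA PaCa-2 (adjusted p = 0.964, limma) and -0.23 for Capan-1 (adjusted p = 0.634, limma). Of 6 genes named in the study's background as HOXB7 targets, FGF2, a growth factor gene, passed as lower in MIA PaCa-2 with a log2 change of -2.15 at one probe (adjusted p = 0.0170, limma). At its other probe, not well above background after siRNA, it was at least 3.94-fold lower (adjusted p = 0.0288, limma), and in Capan-1 it was below the detection criterion and not tested. CXCL8, a chemokine gene, rose in MIA PaCa-2 by 0.77 (adjusted p = 0.0367, limma). In this line 1.89% of all probes passed in either direction. The FGF2 and CXCL8 calls were lost when MIA PaCa-2 was fitted alone, where 0 of 23711 probes passed. In Capan-1 none of the 4 tested target genes passed. In the average of both lines CXCL8 passed too (adjusted p = 0.0423, limma). Without a filter on dim probes that call was lost, as 0 of 34127 probes passed. No cofactor, regulator or flanking gene passed in the average as reported. The smallest adjusted p there were 0.0567 for SKAP1, 0.139 for RARG and 0.0891 for MEIS1, the last not well above background on any MIA PaCa-2 array. FGF2, on no Capan-1 array well above background, has no average of its own beyond its MIA PaCa-2 value.

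The lines themselves differed in their HOXB levels before any treatment. Parental MIA PaCa-2 cells were compared with parental Capan-1 cells, a contrast in which 70.1% of all probes passed, so that 8 of 10 HOXB probes passing, 4 in each direction, is near the background. HOXB8 stood out by size. Its levels of 3.27 and 2.41 in MIA PaCa-2 against -4.48 and -4.91 in Capan-1 gave a log2 change of 7.53 ± 0.31 (SE, n = 2, limma adjusted p = 5.79e-06), 185-fold higher in MIA PaCa-2 and the 39th highest of 24964 probes. Over the alternative ways of processing, this log2 value of HOXB8 ran from 5.08 to 7.96. HOXB9 was 3.58-fold higher in MIA PaCa-2 (adjusted p = 1.55e-05, limma), HOXB5 1.79-fold (adjusted p = 0.000531, limma) and HOXB13 1.54-fold (adjusted p = 0.00209, limma).

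The HOXB genes lower in parental MIA PaCa-2 cells than in parental Capan-1 cells were HOXB2, HOXB3, HOXB6 and HOXB7. HOXB7 was 4.13-fold lower (95% interval 2.64 to 6.45, limma adjusted p = 0.00071), HOXB3 2.69-fold (adjusted p = 8.98e-05, limma) and HOXB6 2.47-fold (adjusted p = 0.000114, limma). The size for the dimmer probes depended on the processing. Over the alternatives the log2 difference ran from -2.41 to -0.69 for HOXB7 and from -1.54 to -0.73 for HOXB3. HOXB2 was 1.57-fold lower at its homeobox probe (adjusted p = 0.00118, limma) and 1.18-fold lower at its downstream probe, where it did not pass (adjusted p = 0.056, limma). HOXB4 did not pass, with a log2 change of 0.18 and a 95% interval of -0.05 to 0.41. The level of HOXB7 in Capan-1 after siRNA, with a mean of -5.03 ± 0.33 (SD, n = 2), thus lay near its mean in untreated MIA PaCa-2 cells, -4.46 ± 0.51 (SD, n = 2), and these were not tested against each other.

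The lines also differed in cell type markers. All 8 listed markers of ductal epithelium were lower in parental MIA PaCa-2 than in parental Capan-1 cells, where 70.1% of all probes passed. For KRT18, a probe at -0.21 did not pass (adjusted p = 0.0802, limma). Of the 8 markers, 3, namely CDH1, EPCAM and CEACAM6, were not well above background on any MIA PaCa-2 array. Vimentin (VIM) and ZEB1, markers of the mesenchymal state, were higher in MIA PaCa-2, and CDH2 was lower. Of 9 listed leukocyte, endothelial, acinar and islet markers 7 were tested, with 4 lower in MIA PaCa-2 and 2 higher. The acinar gene PRSS1, not well above background in MIA PaCa-2, was at least 417-fold lower there. In the siRNA contrast of either line, MUC1 in MIA PaCa-2 was the one ductal marker that passed, as lower (adjusted p = 0.0249, limma). That call was lost when MIA PaCa-2 was fitted alone, where 0 of 23711 probes passed. The part of these marker differences in the HOXB levels was not tested.

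Genes of the other lists differed between the parental lines as well, with 70.1% of all probes as the background. Of 12 flanking genes tested, 8 were lower in MIA PaCa-2, namely SKAP1, IGF2BP1, NFE2L1, CALCOCO2, SNX11, ATP5MC1, UBE2Z and SNF8, and 2 were higher, CBX1 and COPZ2. SKAP1, an adaptor gene of T cell signalling that lies next to HOXB1, had a log2 difference of -6.54, and IGF2BP1, an RNA-binding protein gene, one of -5.27. Among the TALE cofactor genes, MEIS1, not well above background in parental MIA PaCa-2 cells, was at least 24.5-fold lower there, TGIF1 (log2 difference -0.92) was lower, and PBX2 (2.22), PBX3, MEIS2, MEIS3 and TGIF2 were higher. Of 10 HOX regulators, CDX2 (log2 difference -2.15), RARA, EED and SUZ12 were lower and RARG, EZH2 and GMNN were higher. For RARA, a probe at -1.72 passed and its other probe, at -0.49, did not (adjusted p = 0.225, limma). The probes of CDX1 disagreed in direction. It was higher at a probe with 1.53 (adjusted p = 0.000357, limma), while its other probe had -0.25 and did not pass (adjusted p = 0.156, limma). CXCL8, MMP9 and VEGFA of the target list were lower and FGF2 was higher, and HOXA7 did not pass (log2 difference -0.05, limma adjusted p = 0.831).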

How the data were processed

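RNA was hybridized to 8 one-color Agilent arrays, 2 per group. The authors scanned the arrays and used Agilent Feature Extraction 9.5.3, and they deposited for each spot a background-subtracted processed intensity, its mean signal and flags for outliers and background. The authors also deposited a table of log2 values, which equalled the log2 of these intensities within 1e-06, which means that the arrays had not been scaled to each other.

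Spots flagged as outliers were dropped, the rest were averaged per probe on the log2 scale, and from each array its 75th percentile over gene probes was taken away. The 4 group means were fitted on all 8 arrays with limma 3.58.1 (lmFit and eBayes, 4 residual degrees of freedom) in R 4.3.3 with the data.table package (version 1.17.8), with two-sided tests and a Benjamini-Hochberg threshold of 0.05 across all tested probes. To be tested, a probe had to be well above background on both arrays of a group in the comparison. A fold against a group not well above background was computed against the lowest detected signal of its arrays and is written as at least. In simulated data of the MIA PaCa-2 comparison (25552 probes, 200 changed), the fit recovered 57% of log2 changes of -1, 91% of -2 and 97.5% of -3, with 6, 11 and 21 false calls, and it made 0 calls where nothing was changed. Figures were drawn in Python 3.11.15 with matplotlib 3.10.9 and pandas 2.3.3.

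Between 69.2% and 74.3% of spots per array were well above background, replicate arrays correlated at 0.994 to 0.997, and the number of arrays limits the precision. The labels do not say whether the 2 arrays of a group are separate cultures, so p-values measure the spread between these samples, which may be technical. Coordinates are those of the files (hg18). Current symbols came from RefSeq (GRCh38.p14). All HOXB probes are described, and of the other lists the genes past the threshold in a contrast, or else the one with the smallest adjusted p. The members and lists were chosen with earlier results of these data known. Alternatives were normexp background correction, quantile normalization, no scaling, keeping outlier spots, other filters, the deposited log2 values, a block for the replicate number, a spread that follows intensity, each line alone and leaving out each array.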

Additional observations from a re-analysis of the deposited data

Results flagged for a closer look

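HOXB13 had fitted changes of opposite sign in the 2 lines, with both siRNA arrays below both parental arrays in MIA PaCa-2 and above both in Capan-1. The 95% interval was -0.55 to -0.05 for MIA PaCa-2 and -0.15 to 0.35 for Capan-1, so a rise in Capan-1 was not shown. The difference of the siRNA changes, MIA PaCa-2 minus Capan-1, was -0.40 on the log2 scale (SE 0.15, 95% interval -0.76 to -0.04), and it did not pass in limma (adjusted p = 0.404). Without scaling between arrays the Capan-1 value was -0.052, so that the opposite signs were not seen there.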

How the results depend on the processing

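With normexp the HOXB7 log2 fold change was -0.10 for MIA PaCa-2 and -0.66 for Capan-1 (passing), the fitted difference of the lines turned from -0.70 to 0.56 and that of HOXB8 to -0.21, HOXB4 turned to 0.12, 0.012 and 0.068 (MIA PaCa-2, Capan-1 and the average), and 0, 1 and 4 probes passed. The offset of 50 units exceeds most of the HOXB7 intensities. With normexp 2 of 8 pairs of HOXB7 with another gene were negative in both lines. No probe passed in MIA PaCa-2 when all 8 arrays had to be well above background, where HOXB7 could not be tested, without a filter (HOXB7 -3.32, adjusted p = 0.0529), or with MIA PaCa-2 fitted alone (-3.32, adjusted p = 0.122), and 2 passed with an intensity trend. In Capan-1, 1 probe, HOXB7, passed without scaling (-2.77, adjusted p = 0.0201) and with the trend (-2.62, adjusted p = 0.0352). In the average, 1 probe passed without scaling and 0 without a filter (HOXB7 -2.97, adjusted p = 0.0607). Without scaling the median of all probes shifted to -0.19 for MIA PaCa-2 and -0.16 for Capan-1, and HOXB13 in Capan-1 turned to -0.052.

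Leaving out each array gave -3.68 to -2.96 for HOXB7 in MIA PaCa-2, -2.85 to -2.39 in Capan-1 and -3.15 to -2.79 in the average, with 0 to 1, 0 to 1 and 0 to 2 probes passing. HOXB7 passed in Capan-1 without siRNA array 2 (adjusted p = 0.0425), and the average lost it without either Capan-1 parental array (adjusted p = 0.0544 and 0.0739). In MIA PaCa-2, HOXB4 ran from -0.083 to 0.035 (it turned to 0.035 without siRNA array 1 and 0.033 without parental array 2), and HOXB8 from -0.62 to 0.24, the latter without parental array 1.

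Groups share replicate numbers, but the replicate differences correlated at only -0.09 to 0.18, so the numbers were not taken to pair the arrays. With the replicate number as a block, 0 probes passed in the average (HOXB7 -2.97, adjusted p = 0.0564), and 1 in MIA PaCa-2 (HOXB7, adjusted p = 0.0434). Apart from what is named here, the causes of these shifts were not tested.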
